A study of Caenorhabditis elegans with 6 samples.

Results

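The 10 genes described here encode cuticle collagens and are known from mutants with an altered body shape: the Dumpy genes dpy-4, dpy-5, dpy-13, dpy-14 and dpy-17, the Squat genes sqt-1 and sqt-3, the Roller genes rol-6 and rol-8, and the Long gene lon-3. The collagens of the cuticle furrows, which also give Dumpy mutants, were left out. Of 22548 probe sets tested on the Affymetrix C. elegans genome array, 12 name 1 of these 10 genes and no other gene, out of 17118 genes with a probe set of their own. sqt-3 and rol-8 have 2 probe sets each and the others have 1. By their type, the probe sets of dpy-4, dpy-5, dpy-13 and sqt-1 can bind several transcripts. The same holds for the brighter probe set of sqt-3 and the brighter one of rol-8. All 12 were measured on each of 6 arrays, and no probe set that names several genes includes a member.

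RNA came from whole, synchronized worms, 3 samples of hs::ΔNTbar-1 and 3 of hs::control animals, which were heat-shocked at the L2/L3 molt for 30 min and left to recover. The labels give the stage as young L3. hs::ΔNTbar-1 animals carry the integrated array huIs7, with a truncated, Myc-tagged BAR-1, a beta-catenin, under the hsp16.2 promoter, and hs::control animals carry deIs14, with the empty heat shock vector pPD49.78. Both arrays also hold mec-7::GFP and a dpy-20(+) plasmid. The control array was made in a dpy-20(e1282) mutant strain, and the host of huIs7 is not given in the sources used here. dpy-20 is itself a body shape gene, although not a collagen gene. Each condition is 1 strain and both were heat-shocked, so other fixed differences between the strains cannot be told apart from a response to ΔNTBAR-1. The paper calls the samples biological replicates.

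Cuticle collagens are small secreted proteins with stretches of Gly-X-Y repeats, made by the hypodermis and the seam cells and laid down anew for each larval cuticle. Their chains are hydroxylated, assembled into trimers, cut by proteases and cross-linked outside the cell. Many collagen genes are expressed in a wave once per molt, and different collagens are used in different stages. Loss of single collagens shortens the worm (Dumpy), lengthens it (Long), or twists the cuticle so that the animal rolls around its axis (Roller). Squat describes animals that are short and fat or that roll, depending on the dose of the allele.

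Values are linear MAS 5 signals, a measure of hybridization intensity that differs in efficiency between probe sets, so levels are compared between arrays and not between genes. The median signal of an array lay between 130.9 and 144.75, and 43.1% to 45.6% of probe sets were under 100. Changes are differences of log2(signal + 16), hs::ΔNTbar-1 minus hs::control, from limma, with Benjamini-Hochberg adjustment of p over the whole array. As a check of the labels, bar-1 gave 7755, 20991 and 16009 on the hs::ΔNTbar-1 arrays and 586, 519.5 and 575 on the hs::control arrays (adjusted p = 0.00775 from limma). dpy-20 gave 977, 891 and 940 against 636, 508 and 597, a log2 fold change of 0.68 (standard error 0.13, adjusted p = 0.0909 from limma). One of the probe sets of mec-7 gave -0.68 (adjusted p = 0.185), and what part the transgene arrays had in these differences was not tested.

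lon-3 had the largest log2 fold change of the 10 genes. lon-3 (ZK836.1, chromosome V) encodes a collagen whose loss makes worms long and whose overexpression makes them short. Its signal was 1086, 766 and 941 on the hs::control arrays 1, 2 and 3, and 2248, 1813 and 2054 on the hs::ΔNTbar-1 arrays. Each hs::ΔNTbar-1 array was thus well above each control array. The means were 931 ± 160 and 2040 ± 218 (SD, n = 3 arrays), a log2 fold change of 1.13 (standard error 0.17, 95% confidence interval 0.73 to 1.53), which is 2.18-fold. The adjusted p was 0.0524 in limma, just short of the threshold of 0.05. lon-3 was the only member that met the study's criteria, a mean change of at least 2-fold with an analysis of variance p no higher than 0.05 and at least 2 arrays in the same direction. These criteria took in 0.705% of all probe sets as higher and 0.546% as lower. The study lists lon-3 among its up-regulated genes from these same arrays, so this is no independent evidence of its direction. Without hs::control replicate 2, the lowest control array, the change was 1.99-fold, under the fold limit of the criteria.

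For its own follow-up the study designed a primer pair to assay the lon-3 transcript by quantitative PCR, shown here in lower case as the only sequence of a member in the sources used:
lon-3 forward primer: cggaccagatggagaggaag
lon-3 reverse primer: gggcacttacagtactcagcatc
They are 20 and 23 bases long, with 60% and 52.2% G or C. No PCR value was used here. The paper's list of Wnt target genes kept after quantitative PCR does not include lon-3. That list also leaves out genes that rose in the PCR but rose as well after ΔNTPOP-1, a dominant negative POP-1. Absence from it thus does not tell whether lon-3 rose in the PCR.

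sqt-1, rol-6 and rol-8 followed lon-3 in log2 fold change. SQT-1 and ROL-6 act together in the cuticle, and a dominant rol-6 allele is widely used as a marker of transgenic worms because its carriers roll. All 3 genes lie on chromosome II. The sqt-1 (B0491.2) signal was 5056, 4370 and 4702 in hs::control and 8746, 8168 and 7237 in hs::ΔNTbar-1 animals. The lowest hs::ΔNTbar-1 array was well clear of the highest control array, and the log2 fold change was 0.77 (standard error 0.12, 95% confidence interval 0.47 to 1.07, adjusted p = 0.065 from limma).

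rol-6 (T01B7.7) gave 2970, 2398 and 2685 against 4152, 4423 and 3500, again with no overlap of the groups. Its log2 fold change was 0.58 (standard error 0.14, 95% confidence interval 0.23 to 0.93, adjusted p = 0.172 from limma). The dimmer probe set of rol-8 (ZK1290.3) gave 2310, 2052 and 2210 against 4030, 3828 and 3249. The log2 fold change there was 0.75 (standard error 0.13, adjusted p = 0.0726 from limma). The brighter one gave 8594, 5882 and 6789 against 11082, 9246 and 9414, with a log2 fold change of 0.50 (standard error 0.17, adjusted p = 0.293). At neither of them did the groups overlap, and their intervals, 0.44 to 1.06 and 0.08 to 0.91, overlap over most of their length.

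**Figure D1:**
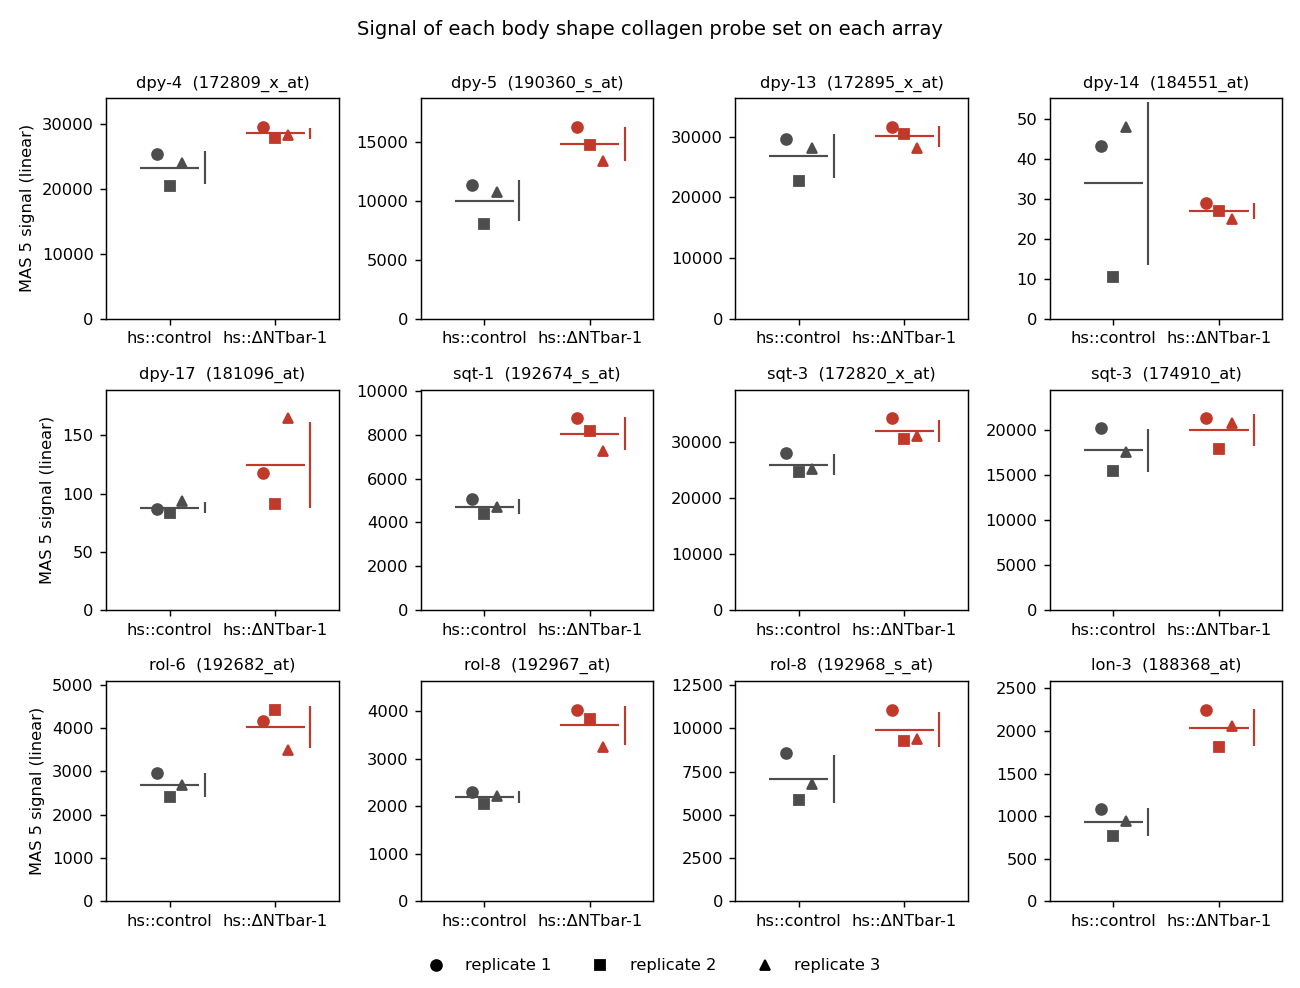
Linear MAS 5 signal (y axis, from 0) of each of the 12 probe sets in hs::control (grey) and hs::ΔNTbar-1 animals (red). Each point is 1 array with its shape giving the replicate number, horizontal lines are means and vertical lines SD of 3 arrays. The groups do not overlap at 8 of the 12 probe sets, and hs::control replicate 2 (grey square) is the lowest control array in every panel.

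Of the Dumpy genes, dpy-5 showed the largest difference. dpy-5 (F27C1.8, chromosome I) encodes a cuticle procollagen whose null mutants are strongly Dumpy. Its signal was 11320, 8025 and 10714 in hs::control and 16280, 14722 and 13400 in hs::ΔNTbar-1 animals. The groups did not overlap, and the log2 fold change was 0.57 (standard error 0.17, 95% confidence interval 0.17 to 0.98, adjusted p = 0.227 from limma).

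dpy-4 (Y41E3.2) and dpy-13 (F30B5.1), both on chromosome IV, gave signals near the top of the range. dpy-4 was at 25349, 20336 and 23994 against 29483, 27850 and 28202, with no overlap and a log2 fold change of 0.30 (standard error 0.12, adjusted p = 0.367 from limma). dpy-13 was at 29672, 22675 and 28165 against 31643, 30422 and 28134. Here the lowest hs::ΔNTbar-1 array was under 2 of the control arrays, and the log2 fold change of 0.17 had a 95% confidence interval of -0.17 to 0.51 (adjusted p = 0.661).

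sqt-3 (F23H12.4, chromosome V) and dpy-17 (F54D8.1, chromosome III) encode procollagens that are both processed by the astacin protease DPY-31. sqt-3 loss is lethal around hatching. At the brighter of its probe sets the sqt-3 signal was 28111, 24590 and 25097 against 34237, 30498 and 31076. These groups did not overlap, with a log2 fold change of 0.30 (standard error 0.11, 95% confidence interval 0.02 to 0.58, adjusted p = 0.334 from limma). At the dimmer one it was 20141, 15451 and 17551 against 21266, 17889 and 20695. There hs::ΔNTbar-1 replicate 2 was under the highest control array, and the log2 fold change was 0.18 (95% confidence interval -0.17 to 0.52, adjusted p = 0.662).

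dpy-17 and dpy-14 were dim. dpy-17 gave 86.7, 83.7 and 93.5 against 118, 91.3 and 165, and its log2 fold change of 0.40 (standard error 0.20, 95% confidence interval -0.08 to 0.89, adjusted p = 0.454 from limma) came largely from hs::ΔNTbar-1 replicate 3. Without that array it was 0.21. dpy-14 (H27M09.4, chromosome I) is in the late embryo class of the study's collagen table. It gave 43.3, 10.5 and 48 in hs::control and 29, 27 and 25 in hs::ΔNTbar-1 animals. The hs::ΔNTbar-1 arrays all lay within the spread of the controls, at a log2 fold change of -0.11 (95% confidence interval -0.94 to 0.71, adjusted p = 0.921). With 76.1% of all probe sets brighter than dpy-14, a change of its transcript may not be measurable here.

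**Figure D2:**
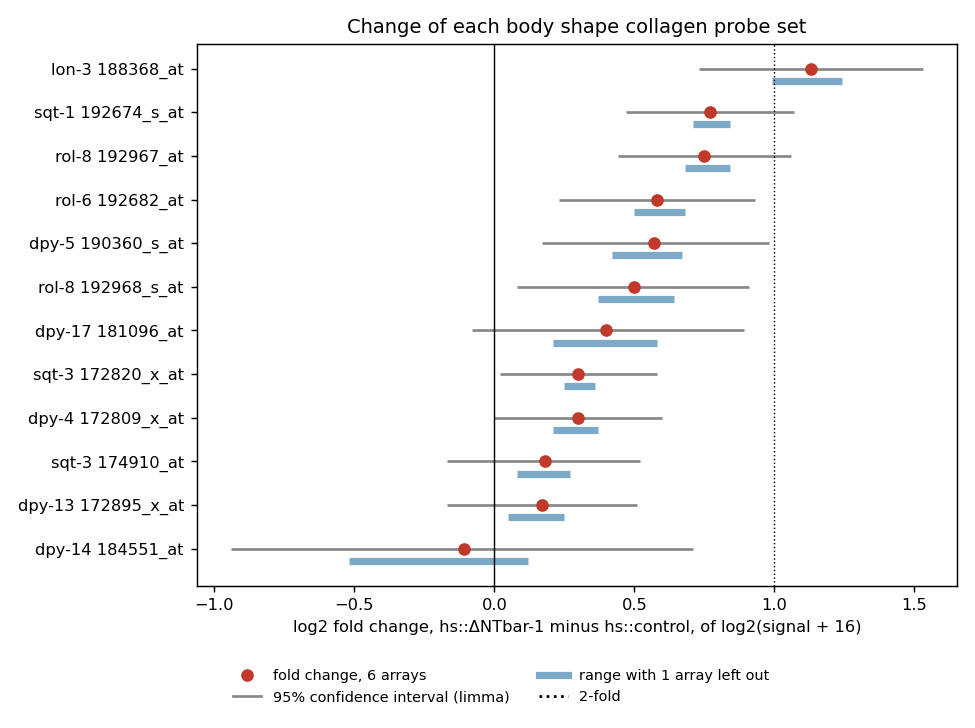
Log2 fold change of each probe set, hs::ΔNTbar-1 minus hs::control (x axis), ordered by size, with its 95% confidence interval from limma (grey) and the range when 1 array was left out (blue). lon-3 is at 1.13, the interval of dpy-14 runs from -0.94 to 0.71, and 8 of the 12 intervals start at 0 or above, that of dpy-4 at 0.00.

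Ordered by the log2 fold change, the genes ran from lon-3 (1.13) over sqt-1 (0.77), rol-8 (0.75 and 0.50), rol-6 (0.58), dpy-5 (0.57), dpy-17 (0.40), sqt-3 (0.30 and 0.18), dpy-4 (0.30) and dpy-13 (0.17) to dpy-14 (-0.11). Neighbours in this order do not differ beyond their intervals. The interval of lon-3 lies above those of both sqt-3 probe sets, of dpy-4, of dpy-13 and of dpy-14, and differences between genes were not tested. The median over the 12 probe sets was 0.45, and over all probe sets tested it was 0.00.

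None of the 12 probe sets passed an adjusted p under 0.05 in limma, by which 0.408% of all probe sets were called higher and 0.266% lower. At an unadjusted p under 0.05, 8 of the 12 were higher and 0 lower, where 7.08% of all probe sets were higher and 6.4% lower. The methods' analysis of variance, with p no higher than 0.05, gave 7 higher and 0 lower (7.02% and 6.43% of all probe sets), and 0 of 12 after Benjamini-Hochberg adjustment (0.0665% each way). The groups did not overlap at 8 of the 12 probe sets, from 7 genes, with hs::ΔNTbar-1 higher at each of these, where 10.7% of all probe sets were above and 10.1% below. The log2 fold change was above 0 at 11 of the 12, and at 50.6% of all probe sets, with 49.4% below 0. Since the members share arrays and move together within groups, these counts are not 12 independent observations. With 3 arrays a group, the smallest p of an exact permutation test is 0.1.

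The lack of calls depended on the settings of the test. With a trended and robust variance model, lon-3 (adjusted p = 0.00158 from limma), sqt-1 (0.00158), the dimmer probe set of rol-8 (0.00265), rol-6 (0.0186) and dpy-5 (0.0344) passed as higher, 5 of 12 probe sets where 2% of all probe sets were called higher and 1.69% lower. Without dim probe sets, which left 11 of the members, lon-3, sqt-1, rol-6 and the same rol-8 probe set passed (adjusted p from 0.00736 to 0.0494, with 2.82% of all called higher and 1.88% lower), and with a pseudocount of 64 lon-3, sqt-1 and that rol-8 probe set (0.0144 to 0.0222, with 1.09% and 0.634%). With any 1 array left out no member passed, and the adjusted p of lon-3 was then 0.0912 to 0.177.

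The collagens also differed between the arrays of 1 group, and did so together. hs::control replicate 2 was the lowest of the control arrays at 12 of the 12 probe sets, where it was the lowest at 32.5% of all probe sets. hs::control replicate 1 was the highest control array at 10 of the 12 (26.9% of all), and hs::ΔNTbar-1 replicate 1 the highest of its group at 10 of the 12 (28.7% of all). The median deviation of the members from their group mean was -0.19 on the log2 scale on hs::control replicate 2 and 0.15 on hs::control replicate 1, while the authors had scaled all arrays to a trimmed mean of 500.2. Over the 10 member probe sets with a mean signal of at least 200, the deviations from group means had a median pairwise correlation of 0.80 (range 0.28 to 0.99, 45 pairs, 6 arrays that the pairs share), given as a description. Without hs::control replicate 2, the log2 fold changes were 0.99 for lon-3, 0.72 for sqt-1, 0.70 and 0.37 for rol-8, 0.50 for rol-6, 0.42 for dpy-5, 0.26 and 0.08 for sqt-3, 0.21 for dpy-4 and 0.05 for dpy-13. Each is smaller than with all arrays by construction, since the lowest control array was left out. The member median was 0.37 without hs::control replicate 2, 0.52 without hs::control replicate 1 and 0.45 with all arrays.

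**Figure D3:**
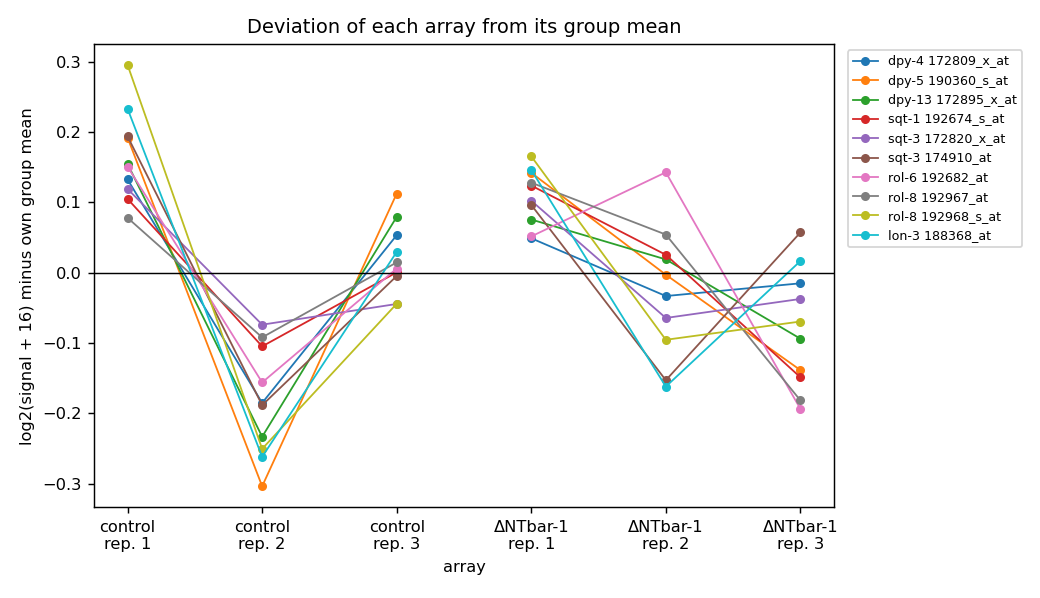
Deviation of log2(signal + 16) from the mean of the array's own group (y axis) on each of the 6 arrays (x axis), for the 10 probe sets with a mean signal of at least 200. Each colour is 1 probe set, and lines only help to follow it. All 10 lie below 0 on hs::control replicate 2 and above 0 on both arrays numbered 1.

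The stage classes of the study's collagen table rest on RNA-seq of other worms. A class names the stage with most of a gene's summed expression and does not mean that the gene is silent in other stages. There sqt-1, rol-6 and rol-8 are classed under the second larval stage, sqt-3, dpy-14 and dpy-17 under the late embryo and dpy-13 under the fourth larval stage. lon-3, dpy-4 and dpy-5 have no single stage there. In the L2 class the 4 member probe sets were at 0.50 to 0.77, and 16 probe sets of 14 other collagen genes had a median log2 fold change of 0.32 (range -1.24 to 0.95) with 0 called in limma. Of these 16, 11 had a mean signal under 100, while the member probe sets lay at 2950 to 8500. The brighter ones were of col-90 (0.76), col-41 (0.55), col-54 (0.41), col-17 (0.34) and col-115 (0.04). In the late embryo class the 4 member probe sets were at -0.11 to 0.40 and 11 of other collagens had a median of 0.08 (range -0.45 to 0.50). dpy-13, at 0.17, stands in the L4 class, where 35 probe sets of 31 other genes had a median of 0.27 and a range of -0.68 to 2.96, with 7 called higher and 0 lower. The 7 include both probe sets of bli-1, a collagen gene of the adult cuticle, at 2.34 and 2.96 (adjusted p = 0.00468 each from limma). The others are of col-38, col-49, col-63, col-71 and col-138, at 1.21 to 2.32 (adjusted p from 0.00468 to 0.0259 in limma). Over all 169 probe sets of 145 collagen genes outside the members, the median was 0.09, with 8 called higher and 1 lower. Outside the L4 class, col-101 was called higher (1.94, adjusted p = 0.0496 from limma) and col-180 lower (-1.33, adjusted p = 0.015).

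**Figure D4:**
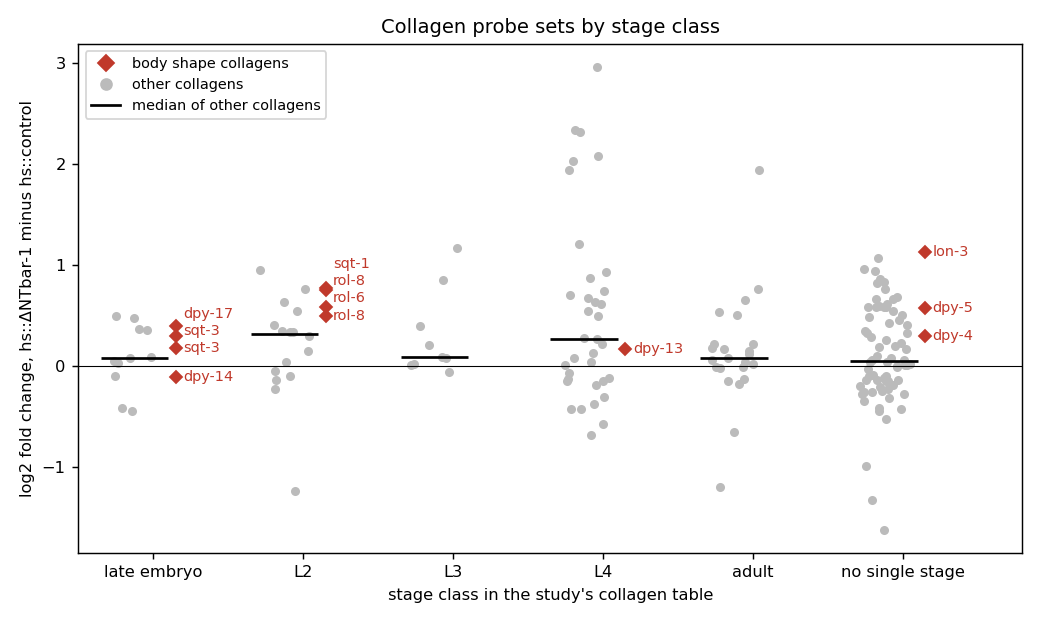
Log2 fold change, hs::ΔNTbar-1 minus hs::control (y axis), of collagen probe sets by stage class (x axis), with members as red diamonds, other collagens as grey points and their median as a black line. Classes with a single probe set are not drawn. The members of the L2 class sit at 0.50 to 0.77 and those of the late embryo class at -0.11 to 0.40.

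The members lie in different parts of the signal range, where the spread of all probe sets differs. The 4 brightest member probe sets, of sqt-3, dpy-4 and dpy-13, had a mean signal over 15000 and log2 fold changes of 0.17 to 0.30. All of these except the dimmer sqt-3 probe set are of types that can bind several transcripts. Of the 230 probe sets on the array over 15000, 90% differed by no more than 0.20 in either direction, and the largest difference was 0.61. The 15 probe sets of other collagens in that range had a median of 0.04 and a maximum of 0.55, above the members there. Between 1000 and 5000, where lon-3, rol-6 and 1 probe set of rol-8 lie at 0.58 to 1.13, 90% of 2646 probe sets differed by no more than 0.47. There, 24 probe sets of other collagens had a median of 0.25 and a maximum of 2.03. Between 5000 and 15000, sqt-1, dpy-5 and the other probe set of rol-8 were at 0.50 to 0.77, where 90% of 454 differed by no more than 0.43. Other collagens in this range, 11 probe sets, had a median of 0.02 and a maximum of 0.83. Of the dim members, dpy-17 was at 0.40 between 100 and 1000, where 90% of 9234 differed by no more than 0.47, and dpy-14 at -0.11 under 100, where 90% of 9984 differed by no more than 0.62. No relation of change and signal was tested. Whether signals near the top of the range understate changes was not tested.

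**Figure D5:**
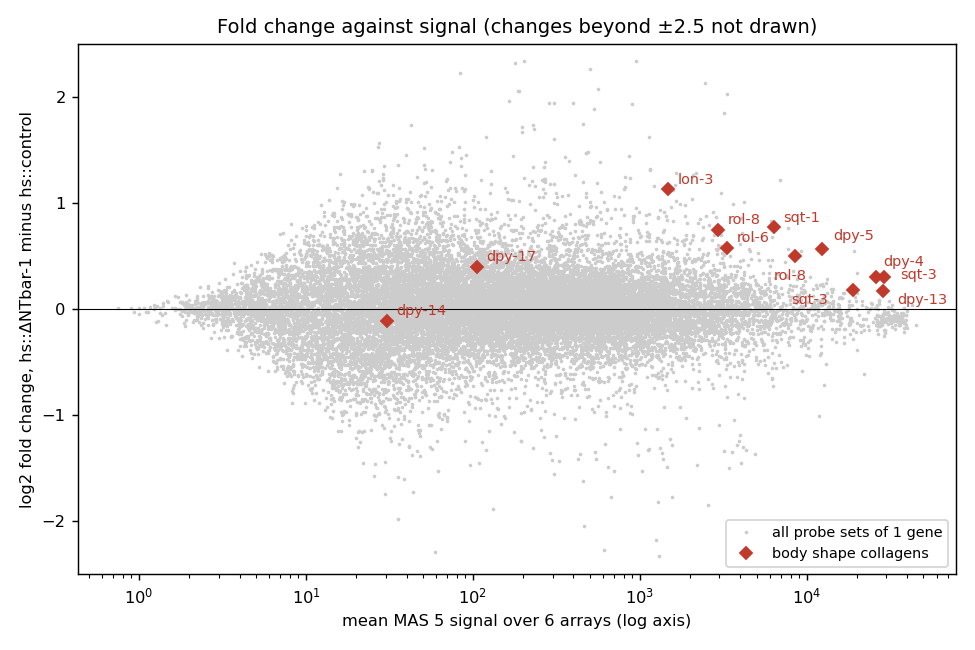
Log2 fold change, hs::ΔNTbar-1 minus hs::control (y axis), against the mean signal over 6 arrays (x axis, log scale) for all probe sets of 1 gene (grey) and the 12 members (red). lon-3 at 1.13 lies above the brighter dpy-4, dpy-13 and sqt-3 at 0.17 to 0.30, where the grey cloud is narrow.

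Among genes that act with these collagens, 0 passed in limma in the lists of furrow collagens, collagen processing, body size signaling and molting. The 6 probe sets of 5 furrow collagens had a median log2 fold change of 0.23 (range 0.03 to 0.50), with 2 higher and 0 lower at an unadjusted p under 0.05, where 7.08% of all probe sets were higher and 6.4% lower. The 15 probe sets of the DBL-1 pathway, the TGF-beta type signal that sets body length, had a median of -0.01 (range -0.39 to 0.37), with 2 higher and 1 lower of 15, near those shares. The 22 probe sets of 12 molt cycle genes had a median of 0.24, and 18 were above 0, as were 50.6% of all probe sets. Of the 22, 6 were higher and 0 lower at an unadjusted p under 0.05, with a probe set of mlt-10, a gene needed for molting, at 1.13 (adjusted p = 0.13). The groups did not overlap at 9 of the 22, all higher in hs::ΔNTbar-1 animals, where 10.7% of all probe sets were higher and 10.1% lower in this way. The summed signal of the list, to which bright probe sets contribute most, was 53061 to 58606 on the hs::control and 56619 to 71218 on the hs::ΔNTbar-1 arrays. What part the point reached in the molt cycle had in the collagen values was not tested.

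In RNA of whole worms, fewer cells of a type and less RNA per cell cannot be told apart. The 9 probe sets of 5 hypodermal marker genes, of the tissue that makes the cuticle, had a median log2 fold change of 0.07, with 0 called, and summed to 10014 to 10447 on the hs::control and 9214 to 10592 on the hs::ΔNTbar-1 arrays. They went both ways, with 2 higher and 1 lower at an unadjusted p under 0.05 and no overlap of the groups at these 3. Both probe sets of che-14 were at 0.35 and 0.45, and 1 of elt-3 was at -0.56 (adjusted p = 0.116 from limma). The 5 of seam cell markers had a median of -0.05 and summed to 4381 to 4525 against 3756 to 4043, with 0 of 5 called. Most of that difference came from 1 bright probe set, of grd-10, with means of 2960 and 2420, and the groups overlapped at the other 4. None of these markers had a mean signal under 100 over the 6 arrays. Muscle, pharynx, intestine, neuron and germ line markers had medians between -0.14 and 0.06. The part of cell type proportions in the collagen values was not tested.

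The probe sets whose values over the 6 arrays were most like those of lon-3 were of gly-5 (Pearson r = 0.998), an N-acetylgalactosaminyltransferase gene, dpy-20 (0.998), Y38A10A.2 (0.997), W04E12.7 (0.996) and C06E1.7 (0.993). Their log2 fold changes were 0.44 to 0.94, and C06E1.7 passed in limma (0.94, adjusted p = 0.0467). For the brighter probe set of sqt-3, the member with the highest mean signal, they were C14A4.9 (0.996), ZK1025.3 (0.995), C27A2.12 (0.995), Y75B7AR.1 (0.995) and fbxa-27 (0.994), at 0.57 to 1.30. These correlations are descriptions over 6 arrays in 2 groups, picked from all probe sets of 1 gene.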

How the data were processed

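The table used here holds signal intensity values of 6 arrays as deposited by the authors. According to the methods, detection calls came from Affymetrix MAS 5 and the statistics from RMA values in Partek. MAS5 and Partek are also named in the submitters' notes on processing, and their versions are not given in the sources used here. Since the values are linear and each array has a trimmed mean of 500.2, they were taken to be MAS 5 signals, scaled by the authors array by array. Affymetrix's own controls, 77 probe sets, were dropped. Groups came from the genotype label and replicate numbers from the source names. The labels and the paper differ on the temperature of the heat shock, the RNA kit and the amount of RNA.

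Members were found in the platform annotation. Of 20766 probe sets that name 1 gene, 20701 were found in the RefSeq table of assembly WBcel235, which gave chromosomes and sequence names. The test was run in R 4.3.3 with limma 3.58.1 (lmFit, eBayes) on log2(signal + 16), two-sided, without covariates and without a further normalization step. The steps were tested on simulated data. Intervals are limma's at 95%, and the number of arrays limits their precision. The members, gene lists and rules were chosen with earlier results of these data known. All members are named, genes of the context lists where they passed in limma, and the 5 probe sets most like lon-3 and the brighter sqt-3 probe set by correlation. dpy-20 and mec-7 are named as parts of the transgenes. mlt-10, che-14, elt-3, grd-10, sqt-2, rol-1 and the single enzyme genes were chosen after their values were seen. So were the named L2 class collagens outside the members. Between any pair of arrays at most 0.297% of values were identical, so each array was counted as 1 sample.

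Alternatives were quantile normalization, centring on array medians, pseudocounts of 1 and 64, leaving out dim probe sets (mean signal below the 40th percentile) or types that can bind several transcripts, a trended and robust variance, a block for the replicate number, the omission of each array in turn, the methods' test, a ratio of mean signals and averaging over probe sets per gene.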

Additional observations from a re-analysis of the deposited data

How the results depend on the processing

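No member passed in limma with all arrays, after quantile normalization, centring, a pseudocount of 1, without types of probe sets that can bind several transcripts (6 members left) or with any 1 array left out. With a pseudocount of 64 there were 3 calls, without dim probe sets 4, with a trended and robust variance 5 and in the methods' analysis of variance without adjustment 7. Over all probe sets the 152 calls became 89 with a pseudocount of 1, 389 with one of 64, 635 without dim probe sets, 89 without types that can bind several transcripts, 833 with a trended and robust variance, 3033 and 30 in the methods' test before and after adjustment, and 23 to 44 with 1 array left out. Fewer arrays or probe sets change the counts by construction, and other causes were not tested.

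With 1 array left out, 0 to 1 members met the study's criteria: lon-3 did not without hs::control replicate 2, at a log2 fold change of 0.99. Under the scalings, pseudocounts, filters and the ratio of mean signals 1 member met them, and under the other alternatives the criteria were not computed. Groups did not overlap at 3 of the 6 probe sets left without types that can bind several transcripts, and at 8 of 12 with all. Over all probe sets, 10.7% were above and 10.1% below in this way, and no share was computed for the reduced set. Of 161 values of single probe sets under the alternatives, 147 kept their direction and side of the threshold, 12 passed it and 2 changed sign, both of dpy-14, which was at 0.06 without hs::control replicate 1 and at 0.12 without hs::control replicate 3. With 1 array left out, dpy-14 ranged from -0.52 to 0.12. The median of all probe sets moved by less than 0.1 under each scaling.

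The labels number the samples of both groups alike. Same-numbered arrays had correlations of 0.07, -0.02 and 0.06 in their deviations from group means over all probe sets, dim ones included. The numbers were not taken as pairs, although these correlations do not settle whether same-numbered samples shared a batch. Array medians still rose with the number in both groups: 130.9, 136.3 and 142.75 in hs::control and 133.95, 140.9 and 144.75 in hs::ΔNTbar-1. Both arrays numbered 1 were also the highest of their group at 10 of the 12 members. A shared cause of this was not tested. With the replicate block, 2 of all probe sets and 0 of the members passed, and lon-3 had an adjusted p of 0.133.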

Other observations

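sqt-2 and rol-1 are further collagen genes known from Squat and Roller mutants that are not among the 10. sqt-2 gave 2634, 1993 and 2548 in hs::control and 3992, 3484 and 3231 in hs::ΔNTbar-1 animals, so that the groups did not overlap (log2 fold change 0.58, adjusted p = 0.198 from limma). rol-1 was close to the bottom of the scale, at 8.8, 13.9 and 4.1 against 36.7, 45 and 12.6 (adjusted p = 0.306 from limma).

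Enzymes that act on cuticle collagens did not run in 1 direction. Of their 23 probe sets 14 were above 0, as were 50.6% of all probe sets. The groups did not overlap at 4 of the 23 on the higher and 5 on the lower side, where 10.7% and 10.1% of all probe sets did not. The 3 probe sets of dpy-18, a prolyl 4-hydroxylase subunit, were at log2 fold changes of 0.29 to 0.51, and phy-2, the other such subunit, at 0.43. dpy-31, the astacin protease that processes SQT-3, was at -0.60, -0.50 and -0.27, and mlt-7, a peroxidase of cuticle cross-linking, at -0.76 and -0.45. tsp-15, a tetraspanin that acts with the dual oxidase BLI-3, was at -0.43, while bli-3 itself was at 0.25 with no overlap of the groups. None of these passed in limma (adjusted p from 0.158 to 0.481), and the part of the molt cycle in these values was not tested.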
